A study of Mus musculus with 11 samples.

Results

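The T cell receptor complex and its proximal kinases were followed as 9 genes of the 45777 in the table, chosen by name: *Trdc*, *Cd3d*, *Cd3e*, *Cd3g*, *Cd247*, *Zap70*, *Cd4*, *Cd8a* and *Lck*. All 9 had a count in every library and were tested in every comparison. The skin and the small intestine (SI) came from BALB/c mice, female or male and 8 to 10 weeks old at treatment. The control mice received vehicle (Vaseline), and the IMQ-treated mice received 5% imiquimod (IMQ, Aldara cream), a TLR7 ligand that induces psoriasis-like dermatitis. The daily dose was 62.5 mg of cream for 5 to 8 days on shaved back skin and the right ear, and the day of each mouse is not given. Skin was represented by control replicates 1 to 3 and IMQ replicates 4 to 6, and SI by control replicates 7 to 9 and IMQ replicates 10 and 11. The libraries were made from RNA of whole tissue, so fewer cells of a type and less RNA per cell cannot be told apart.

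A T cell recognizes antigen with an alpha beta or a gamma delta receptor, which has no signaling tail of its own and reaches the surface together with the CD3 gamma, delta, epsilon and zeta chains. The kinase LCK, carried in part by the coreceptors CD4 and CD8, phosphorylates the tails of these chains, and the kinase ZAP-70 docks on the phosphorylated tails and passes the signal to adaptors such as LAT and SLP-76. In mouse skin, gamma delta T cells of the epidermis and the dermis make up a large share of the resident T cells, and in the SI epithelium CD8-bearing and gamma delta T cells lie between the enterocytes.

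The depth was 44995414 to 58526384 counts per library. The 10 pairs of libraries of one group had a chi-square per degree of freedom of 36.9 to 251, over genes with at least 20 reads in the pair. This statistic sets squared differences against the variance of sampling noise. Control replicate 2 of the skin stood apart from the other control skins. It had counts of all 19 enterocyte markers, at a median of 1.09% of their control SI level after subtracting control replicates 1 and 3. At that percent the SI would account for 0.431% (*Cd247*) to 1.70% (*Lck*) of the FPKM of 8 members in this library and for 26.9% of that of *Cd8a*. The summed FPKM of 9 hair follicle markers was 673 and 1091 in control replicates 1 and 3, 3.68 in control replicate 2 and 2.88 to 3.73 after IMQ. Results that rest on this library are also given without it. In skin fits without it, both remaining controls are high in hair follicle markers and all IMQ libraries low. The effect of treatment and that of hair follicle content then cannot be told apart, so these fits are not a cleaner comparison. FPKM is the number of fragments scaled by transcript length and library size, and only this unit is used to compare levels between genes. Normalized counts are read counts brought to one library size within each tissue.

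In control skin the members ranged over a wide span of FPKM. *Cd3g*, the gene of the CD3 gamma chain, was highest at 7.61 ± 4.27 (SD, n = 3). It was followed by *Trdc*, the constant region of the delta receptor chain, at 3.54 ± 1.95, *Lck* at 3.43 ± 0.716 and *Cd3e*, the epsilon chain, at 3.14 ± 1.09. *Cd4* had 2.12 ± 0.295, *Cd247*, the zeta chain, 1.85 ± 0.619, *Cd3d*, the delta chain of CD3, 1.42 ± 0.474, and *Zap70* 0.984 ± 0.251. *Cd8a* was last at 0.151 ± 0.0518, below every library of every other member. From *Cd3g* down to *Zap70*, neighbours in this order differed by less than the sum of their SDs. In IMQ-treated skin *Trdc* was first, at 25.0 ± 15.5 FPKM, ahead of *Cd3g* at 20.7 ± 12.6, whereas *Lck* was at the seventh place with 2.65 ± 0.708. In control SI *Cd3g* was first at 10.2 ± 2.44 and *Cd8a* was at the third place with 5.15 ± 0.747, while *Trdc* took the sixth place at 3.70 ± 0.701 and *Cd247* the last at 1.01 ± 0.266.

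**Figure D1:**
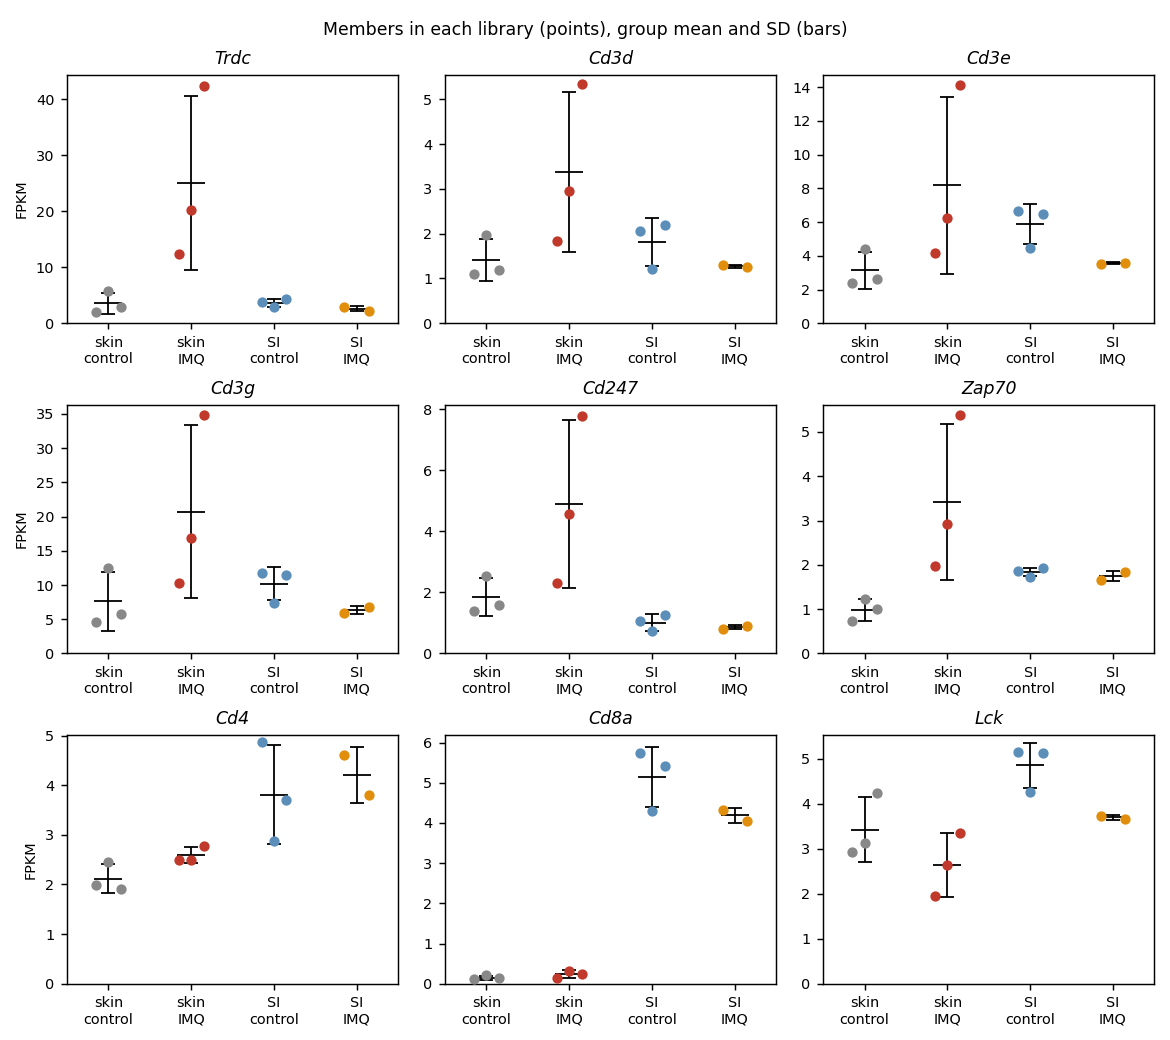
FPKM (linear axis from 0) of each member in the 3 control and 3 IMQ skin libraries and the 3 control and 2 IMQ SI libraries; points are libraries and bars are the group mean and SD. *Trdc* in IMQ-treated skin reached 12.4 to 42.4, and *Cd8a* stayed between 0.109 and 0.325 in all skin libraries against 4.06 to 5.73 in SI.

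The first question was whether IMQ on the skin changed these genes in the skin itself. *Trdc* (Entrez Gene 100123473) lies on chromosome 14 from 54142851 to 54146108 of GRCm38 (mm10), on the plus strand. It had 116, 355.5 and 166 normalized counts in control replicates 1, 2 and 3, and 784, 1234 and 2506 in IMQ replicates 4, 5 and 6. Every IMQ library was above every control, and control replicate 2 was the highest control. The tissues were tested with the quasi-likelihood F test of edgeR, its p-values were adjusted by the Benjamini-Hochberg method over the 20512 genes tested in skin, and a gene was called at an adjusted p under 0.05. By this test *Trdc* rose 7.13-fold, or by 2.83 on the log2 scale (SE 0.57, edgeR adjusted p = 0.0350). The call was kept in 1 of the 6 fits without one library (0.0191 without control replicate 2, up to 0.112 in the others), in which the log2 fold change was 2.26 to 3.42, and in 6 of 7 alternatives with another model, filter or normalization.

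*Zap70* (Entrez Gene 22637) had 72.4, 149 and 98.5 normalized counts in the control skins and 250.2, 343 and 632 after IMQ. The groups did not overlap, and the IMQ libraries stood in the same order as for *Trdc*. With *Trdc*, 2 of the 9 members were called higher, against 4.05% of all genes tested, and the same 2 of 9 were higher without overlap, against 15.1% of all genes. The log2 fold change of *Zap70* was 1.94. Its call was kept in 4 of the same 7 alternatives. It was lost without a filter (edgeR adjusted p = 0.0559) and with limma on log2(FPKM + 0.01) (adjusted p = 0.0581) and log2(FPKM + 1) (adjusted p = 0.0976). Of the fits without one library, only that without control replicate 2 kept it (edgeR adjusted p = 0.0327).

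The genes of the CD3 gamma, epsilon and delta chains moved in parallel from library to library. *Cd3g* (Entrez Gene 12502) had 244, 718 and 306 normalized counts in control skin and 606.5, 952 and 1903 after IMQ. *Cd3e* (Entrez Gene 12501) had 183, 364 and 201 in control skin and 349.7, 501 and 1104 after IMQ. *Cd3d* (Entrez Gene 12500) had 76.9, 143 and 81.1 in control skin and 139.9, 212 and 374 after IMQ. For all 3 genes control replicate 2 lay above IMQ replicate 4, so that the groups overlapped, and IMQ replicate 6 was highest. The log2 fold changes were 1.45 for *Cd3g*, 1.39 for *Cd3e* and 1.27 for *Cd3d*. None of them was called by edgeR (adjusted p = 0.170, 0.143 and 0.137), whereas the Wald test of DESeq2 called all 3 (adjusted p = 0.0365, 0.0243 and 0.0249). Single libraries moved these values in both directions. Without control replicate 2 they were 2.07, 1.76 and 1.62 in the same order, with edgeR adjusted p = 0.0537, 0.0835 and 0.0752. Without IMQ replicate 6 they were 0.89, 0.77 and 0.82, with edgeR adjusted p = 0.369, 0.295 and 0.287.

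*Cd3g* and *Cd3d* lie head to head on chromosome 9, on opposite strands, with their annotated starts 1337 bases apart. The sequences before the starts are shown because these neighbours moved in parallel, together with those of the kinase genes, *Zap70*, which was called, and *Lck*, which was not. RefSeq gave promoters for 7 of the 9 members. *Zap70* had 3 and *Lck* had 2, of which only the farthest upstream is shown. Each sequence is written 5′ to 3′ on the strand of its gene, with capitals for any match, on either strand, of 4 short motifs. AGGAAG is the core of many sites of ETS factors, and 29.5% of all 32851 promoters of this length held it. TGTGGT is a core of RUNX sites (14.0% of promoters). CAGGTG is a form of the E-box (17.2%), and AGATAA is bound by erythroid and lymphoid zinc finger factors of the GATA family (9.99%). No match overlapped another. The windows, in GRCm38, are chr9:44980432-44980681 (minus strand) for *Cd3g*, chr9:44981536-44981768 (plus) for *Cd3d*, cut short where its annotated transcript begins, chr1:36761548-36761797 (plus) for *Zap70* and chr4:129573642-129573891 (minus) for *Lck*.
Cd3g: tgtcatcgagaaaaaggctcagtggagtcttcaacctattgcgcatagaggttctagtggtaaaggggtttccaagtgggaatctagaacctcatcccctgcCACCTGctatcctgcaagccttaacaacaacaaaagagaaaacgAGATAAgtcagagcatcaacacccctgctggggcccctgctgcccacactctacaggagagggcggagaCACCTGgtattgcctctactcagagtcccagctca
Cd3d: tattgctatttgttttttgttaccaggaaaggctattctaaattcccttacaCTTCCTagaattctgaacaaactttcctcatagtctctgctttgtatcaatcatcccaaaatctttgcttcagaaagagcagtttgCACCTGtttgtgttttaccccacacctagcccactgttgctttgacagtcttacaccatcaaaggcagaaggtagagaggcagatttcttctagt
Zap70: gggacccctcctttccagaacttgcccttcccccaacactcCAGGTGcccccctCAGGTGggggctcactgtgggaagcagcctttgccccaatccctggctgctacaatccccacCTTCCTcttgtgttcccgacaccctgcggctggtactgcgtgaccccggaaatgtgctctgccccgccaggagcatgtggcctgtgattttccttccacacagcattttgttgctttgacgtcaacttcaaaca
Lck: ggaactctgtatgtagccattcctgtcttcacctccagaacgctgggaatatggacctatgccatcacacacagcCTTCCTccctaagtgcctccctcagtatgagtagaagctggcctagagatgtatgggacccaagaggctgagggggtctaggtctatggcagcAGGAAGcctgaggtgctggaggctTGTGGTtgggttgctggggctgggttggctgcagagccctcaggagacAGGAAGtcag
The E-box letters occur in the windows of *Cd3g*, *Cd3d* and *Zap70*, the ETS letters in those of *Cd3d*, *Zap70* and *Lck*, the GATA letters in that of *Cd3g*, and the RUNX letters in that of *Lck*. For the kinase genes this depends on the promoter shown. Promoter 2 of *Lck* held the E-box and ETS letters and no RUNX letters. Promoter 2 of *Zap70* held the ETS and RUNX letters and no E-box, and promoter 3 only the E-box. Among the members whose promoters are not shown, *Cd3e*, which moved in parallel with *Cd3g* and *Cd3d*, had the ETS letters and no E-box. *Cd247* had the E-box and ETS letters, and *Cd8a* had no match to any motif. A match describes the letters only.

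*Cd247* (Entrez Gene 12503), which encodes the zeta chain with most of the signaling motifs of the complex, lies on chromosome 1 from 165779952 to 165871153 on the plus strand. It had 129, 245 and 149.9 normalized counts in control skin and 235, 438 and 721 after IMQ. Control replicate 2 again lay above IMQ replicate 4. The log2 fold change was 1.41 (SE 0.45, edgeR adjusted p = 0.115, or 0.0743 without control replicate 2), and the Wald test of DESeq2 gave an adjusted p of 0.0127. *Pou2f1* lies on the opposite strand over a part of *Cd247* with up to 2040 counts in a library, and the strand setting of the counting is not given in the sources used here, so that reads of this gene can have entered the counts of *Cd247*.

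*Lck* (Entrez Gene 16818, chromosome 4 from 129548344 to 129573641, minus strand) did not share this profile. It had 325, 374 and 467 normalized counts in control skin and 237, 308.5 and 384 after IMQ. The groups overlapped, with the lowest library among the IMQ-treated and the highest among the control skins. The log2 fold change was −0.33 (SE 0.24, edgeR adjusted p = 0.472), and it was below 0, from −0.53 to −0.16, and not called in every alternative and every fit that left libraries out.

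The coreceptor genes were not called in skin. *Cd4* (Entrez Gene 12504, chromosome 6 from 124864693 to 124888247, minus strand), expressed by helper T cells and by some myeloid cells, had 325, 422 and 303 normalized counts in control skin and 436, 421 and 453 after IMQ. Control replicate 2 lay between the IMQ libraries, and the log2 fold change was 0.32 (SE 0.18, edgeR adjusted p = 0.350). *Cd8a* (Entrez Gene 12525, chromosome 6 from 71373427 to 71379171, plus strand), of cytotoxic T cells, had only 20 to 55 reads in each skin library. Its normalized counts were 18.1, 37.1 and 21.8 in control skin and 26.2, 56.6 and 42.4 after IMQ, which overlapped, with an edgeR adjusted p of 0.342. In the fit of all skin libraries its log2 fold change was 0.71 (standard error 0.40). The size of change that can be detected for this gene at this depth was not tested.

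**Figure D2:**
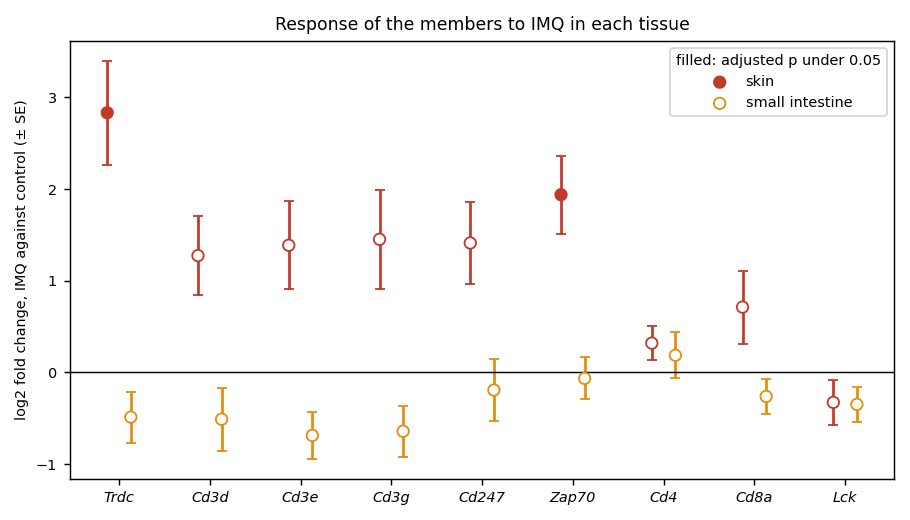
Log2 fold change of IMQ against control (vertical axis, ± standard error) of each member in skin and SI, by edgeR; filled points have an adjusted p under 0.05. In skin *Trdc* (2.83) and *Zap70* (1.94) are filled, *Lck* is at −0.33, and no point of SI is filled.

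The ratio of members within a library does not depend on its scaling, and was used to ask whether the parts of the complex changed in proportion. The smallest p that the exact two-sided permutation test allows here is 0.1, so none of these ratios can pass 0.05. The FPKM of *Trdc* divided by the sum of *Cd3d*, *Cd3e* and *Cd3g* was 0.247, 0.304 and 0.301 in control skin and 0.757, 0.778 and 0.781 after IMQ. The IMQ libraries were alike in this ratio although their *Trdc* FPKM ranged from 12.4 to 42.4. The ratio rose in every IMQ library above every control, from 0.284 ± 0.0318 to 0.772 ± 0.0129 (SD, n = 3 each), a log2 difference of 1.45 (exact permutation p = 0.1).

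*Lck* divided by the same sum was 0.362, 0.166 and 0.442 in control skin and 0.119, 0.101 and 0.0620 after IMQ. All IMQ libraries were lower, and control replicate 2 was the nearest control. The log2 difference was −1.72 (exact permutation p = 0.1), and −1.43 to −2.14 when a library was left out. *Cd247* kept its proportion to the sum within the spread, at 0.159 ± 0.0201 in control skin and 0.154 ± 0.0187 after IMQ (SD, n = 3 each, exact permutation p = 1), and *Zap70* divided by the sum overlapped between the groups (0.0864 ± 0.0199 and 0.111 ± 0.0107, exact permutation p = 0.2). *Zap70* divided by *Lck*, a ratio chosen after the values were seen and so a description, was 0.236 to 0.393 in control skin and 1.01 to 1.60 after IMQ.

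**Figure D3:**
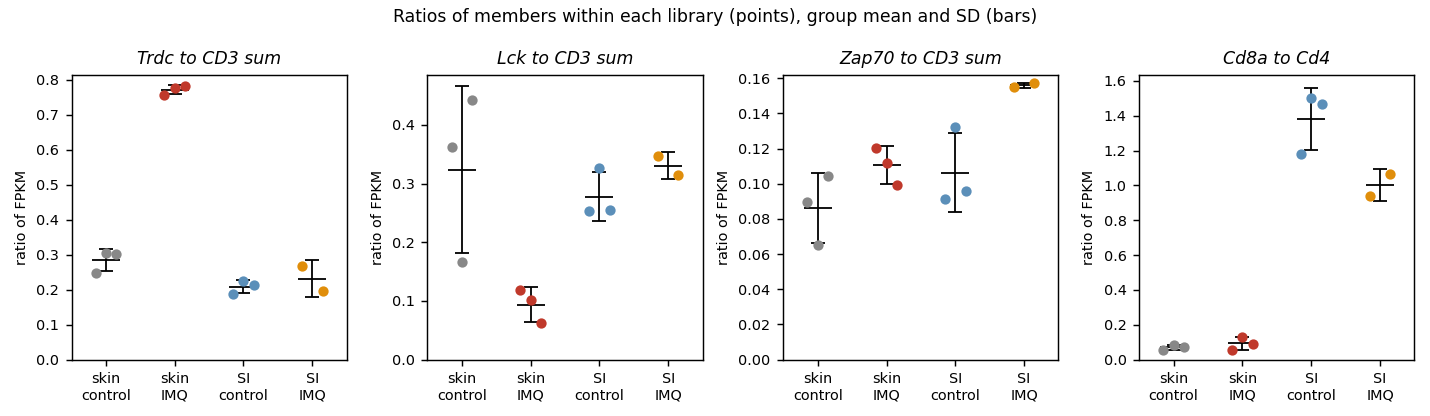
Ratios of FPKM within each library (linear axes from 0) in the 4 groups; points are libraries, bars the group mean and SD, and the CD3 sum is that of *Cd3d*, *Cd3e* and *Cd3g*. *Trdc* to the CD3 sum sits at 0.757 to 0.781 in IMQ-treated skin and at most at 0.304 in every other library, and *Cd8a* to *Cd4* at 0.131 or less in skin and 0.938 or more in SI.

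The second question was whether the same genes changed in the SI of mice treated on the skin. No member was called there by edgeR (0 of 9, against 2.95% of all 19965 genes tested), in DESeq2 or in any other model or fit without one library, and 1 member, *Cd3e*, had an unadjusted p under 0.05. *Cd3e* had 572, 359 and 573 normalized counts in control replicates 7, 8 and 9 and 296 and 326 in IMQ replicates 10 and 11. Both IMQ libraries were below every control, and control replicate 8 was the lowest control. The log2 fold change was −0.69 (SE 0.26, edgeR adjusted p = 0.310).

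*Lck* had 644, 490.0 and 658 normalized counts in control SI and 455 and 483 after IMQ, also without overlap (log2 fold change −0.35, edgeR adjusted p = 0.569). Thus 2 of 9 members were lower without overlap, against 13.9% of all genes tested. *Cd3g* had 706, 411 and 707 in control SI and 349 and 431 after IMQ, and *Cd3d* 155, 87.7 and 168 against 98.9 and 93.1. For both, control replicate 8 lay within or below the IMQ libraries, and edgeR gave adjusted p-values of 0.419 and 0.659. *Trdc* had 251, 177 and 287 in control SI and 183 and 156 after IMQ (log2 fold change −0.49, standard error 0.28, edgeR adjusted p = 0.580).

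The remaining members overlapped between control and IMQ-treated SI. *Zap70* had 247, 196 and 257 normalized counts in control SI and 215 and 231 after IMQ, and *Cd247* 110, 73.6 and 139 against 88.1 and 99.8. *Cd8a* had 1051, 733 and 1020.5 against 774 and 784. *Cd4* was the only member with a positive log2 fold change, 0.19 (SE 0.25, edgeR adjusted p = 0.863), with 879, 482 and 669 normalized counts against 813 and 725. Over the 9 members the median log2 fold change was −0.35 in SI and 1.39 in skin, beside −0.02 and −0.01 over all genes tested.

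*Cd247* divided by the CD3 sum was 0.0520, 0.0553 and 0.0620 in control SI and 0.0761 and 0.0785 after IMQ, higher in both IMQ libraries (exact permutation p = 0.1, the smallest this test allows). *Zap70* divided by the same sum was 0.0911, 0.132 and 0.0956 in control SI and 0.155 and 0.157 after IMQ, also without overlap (log2 difference 0.57, exact permutation p = 0.2). *Lck* divided by the sum overlapped, at 0.253 to 0.327 in control SI and 0.347 and 0.314 after IMQ. *Zap70* divided by *Lck* was 0.361 to 0.405 in control SI and 0.447 and 0.499 after IMQ. *Cd8a* divided by *Cd4* was 1.18, 1.50 and 1.47 in control SI and 0.938 and 1.07 after IMQ, lower in both (exact permutation p = 0.2). *Trdc* to the CD3 sum was 0.188 to 0.224 in control SI and 0.195 and 0.269 after IMQ, which overlapped.

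The difference between the responses of the tissues was tested by edgeR as the interaction of tissue and treatment, with all 11 libraries in 1 model and 18108 genes. *Trdc* was the 1 member of 9 that was called, against 0.856% of all genes called in this direction. Its response in SI was lower than in skin by a log2 difference of −3.31 (SE 0.74, edgeR adjusted p = 0.0435), and the call was kept in 2 of the 11 fits without one library and in 4 of 6 alternatives with another model, filter or normalization. For *Zap70* the difference was −1.99 (adjusted p = 0.0879), for *Cd3g* −2.08 (0.174), for *Cd3e* −2.06 (0.126), for *Cd3d* −1.78 (0.166) and for *Cd247* −1.59 (0.225) by edgeR. For *Cd4* and *Lck* it was −0.13 and −0.02, with standard errors of 0.33 and 0.32. Without control replicate 2 of the skin 4 members were called, against 1.83% of all genes called in this direction in that fit, *Trdc* (−3.93, edgeR adjusted p = 0.00848), *Zap70* (0.0282), *Cd3g* (0.0311) and *Cd3e* (0.0437).

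Between the control tissues, 5 of the 9 members were called higher in SI than in skin, against 28.2% of all genes tested. *Cd8a* had the largest difference, 46.3-fold or 5.53 on the log2 scale (SE 0.35, edgeR adjusted p = 2.74e-07). The log2 difference was 1.46 for *Zap70* (adjusted p = 0.00519), 1.34 for *Cd3e* (0.0187), 1.28 for *Cd4* (5.02e-04) and 0.96 for *Lck* (0.00286) by edgeR. *Cd3g* (0.85), *Cd3d* (0.78) and *Trdc* (0.50) were not called, and *Cd247* (−0.37, adjusted p = 0.475) had the only negative value. Without control replicate 2, 7 were called, against 28.5% of all genes in that fit, among them *Cd3g* (1.50, edgeR adjusted p = 0.0139) and *Cd3d* (1.15, 0.0377). The scale matters here: limma on log2(FPKM + 0.01) moved the median of all genes by −0.45 and called 3 members, *Cd8a*, *Cd4* and *Zap70*, and limma on log2(FPKM + 1) moved it by −0.25 and called *Cd8a* and *Cd4*, with 3196 genes higher and 8330 lower, and 3167 and 8278, against 5111 and 5210 by edgeR.

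*Trdc* was next set beside the other receptor genes, which tell the receptor types apart. Of the 7 constant region genes, 2 were called higher in skin, against 4.05% of all genes. They were *Trdc* and *Tcrg-C2*, a gamma chain constant gene (log2 fold change 4.08, edgeR adjusted p = 0.0117). The call of *Tcrg-C2* was kept in 4 of the 6 fits without one library and lost without control replicate 1 (edgeR adjusted p = 0.0632) or IMQ replicate 5. Reads of *Tcrg-C1* and *Tcrg-C2*, like those of *Trbc1* and *Trbc2*, can be shared between near-identical copies. *Trac*, the alpha chain constant gene, had 2.72, 4.65 and 3.57 FPKM in control skin and 2.26, 4.29 and 6.67 after IMQ, and was not called (log2 fold change 0.30, edgeR adjusted p = 0.712). The beta chain constant genes *Trbc1* (0.76) and *Trbc2* (0.93) were not called either (edgeR adjusted p = 0.218 and 0.0564). Nor were the gamma chain genes *Tcrg-C1* (2.47) and *Tcrg-C4* (1.485), with edgeR adjusted p = 0.0766 and 0.164. For *Trbc2* and *Tcrg-C1* every IMQ library was above every control, whereas *Trac*, *Trbc1* and *Tcrg-C4* overlapped. In SI 0 of the 7 were called and all 7 had negative log2 fold changes, with a median of −0.45.

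All 13 gamma and delta variable genes of the table were added after values had been seen, and few had enough counts to be tested. *Tcrg-V4*, used by IL-17-producing gamma delta T cells of the dermis, had 0.202, 0.290 and 0.144 FPKM in control skin and 4.74, 8.52 and 16.0 after IMQ. It rose by 5.42 on the log2 scale (SE 0.58, edgeR adjusted p = 0.00533), and the call was kept in all 6 fits without one library. *Trgv2* had 0.253, 0.437 and 0.245 FPKM in control skin and 3.22, 6.94 and 10.1 after IMQ (log2 fold change 4.37, edgeR adjusted p = 0.00750), also called in all 6. *Trdv2-2*, a delta variable gene, had 0, 0 and 3 reads in control skin and 72, 129 and 278 after IMQ, and was not tested because of the zero counts. For these 3 genes every IMQ library was above every control, a pattern that 15.1% of all genes tested in skin had. The same held, on few reads and untested, for *Tcrg-V6* (0, 4 and 1 reads in control skin, 17, 16 and 16 after IMQ). It also held for *Trdv2-1* (0, 0 and 0, then 16, 23 and 46) and *Trdv5* (0, 0 and 0, then 2, 6 and 19). *Tcrg-V1*, *Tcrg-V3* and *Tcrg-V7* overlapped, and *Trdv1* and *Trdv3* had 0 reads in skin.

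*Tcrg-V5*, of the epidermal dendritic T cells, went the other way. It had 1.78, 3.94 and 1.01 FPKM in control skin and 0.204, 0.0857 and 0.848 after IMQ, without overlap, on 21 to 70 reads in the controls and 2 to 15 after IMQ. The log2 fold change was −2.48 (SE 0.79, edgeR adjusted p = 0.118). *Trdv4*, the delta variable gene that pairs with it, had 1.69, 4.81 and 1.82 FPKM in control skin and 1.93, 0.642 and 1.13 after IMQ, which overlapped (edgeR adjusted p = 0.310), and had 0 reads in all 5 SI libraries. In contrast, *Tcrg-V7*, of intraepithelial gamma delta T cells of the gut, had 46 to 115 reads in the SI libraries and at most 11 in a skin library.

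**Figure D4:**
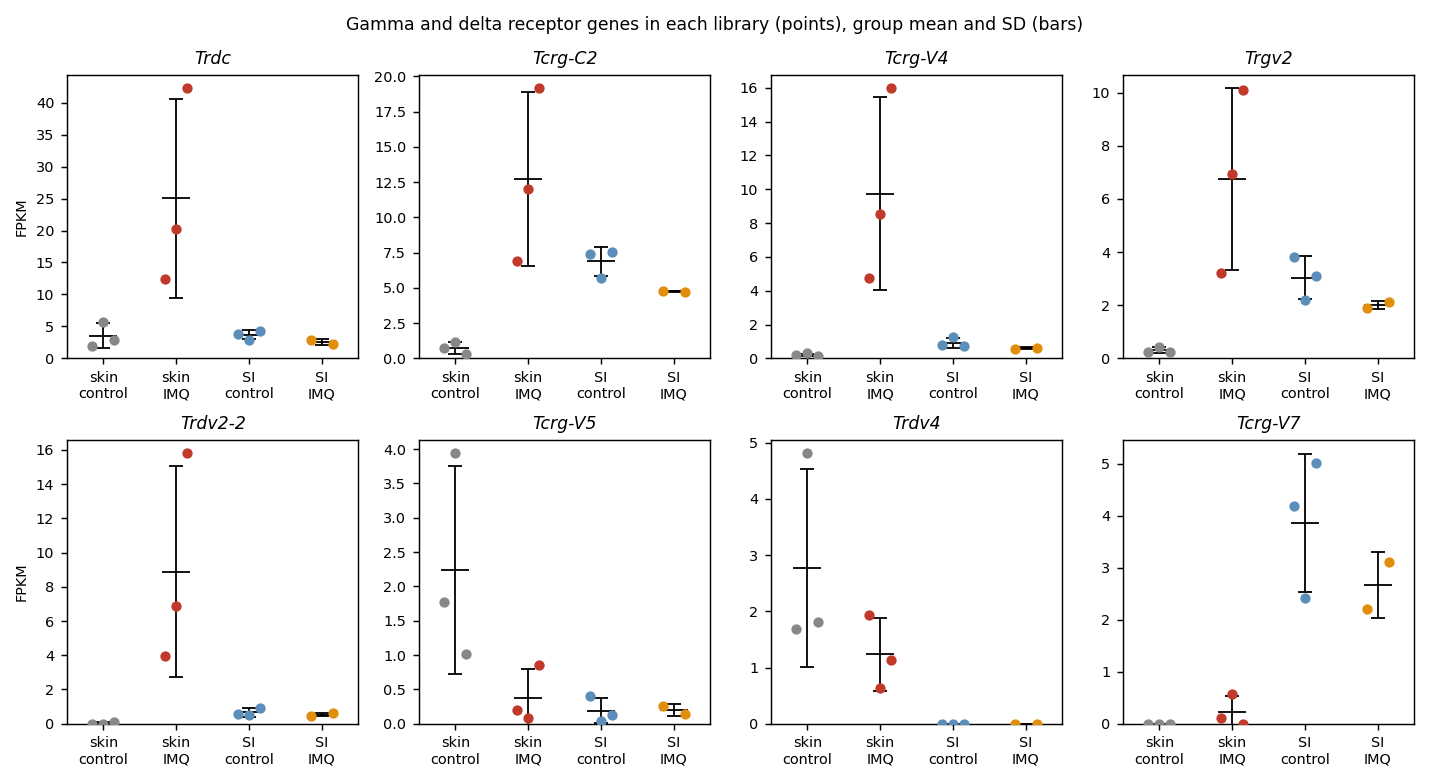
FPKM (linear axes from 0) of *Trdc* and 7 gamma and delta receptor genes in the 4 groups; points are libraries and bars the group mean and SD. *Tcrg-V4* reaches 4.74 to 16.0 in IMQ-treated skin and at most 1.25 elsewhere, whereas *Tcrg-V5* is highest in control skin, at 1.01 to 3.94.

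Of the 26 other genes of proximal signaling, 8 were called higher and 0 lower in skin, against 4.05% of all genes called higher. Their median log2 fold change was 0.88. The smallest adjusted p-values belonged to *Fyb* (log2 fold change 2.54), *Lcp2*, the gene of SLP-76 (1.86), *Vav1* (1.79) and *Was* (1.38), with 0.00238, 0.00996, 0.0105 and 0.0152 by edgeR. These 4 genes act downstream of ZAP-70 and are also used by myeloid cells. In SI 10 of the 26 were called higher and 0 lower, with a median of 0.06, against 2.95% of all genes called in either direction. *Lcp2* (2.87), *Vav1* (2.13) and *Fyb* (2.40) were among those with the smallest adjusted p-values there (2.20e-04, 3.45e-04 and 4.35e-04 by edgeR). *Lat*, the gene of an adaptor of T cells, named after its values were seen, had log2 fold changes of 1.43 in skin and −0.71 in SI, and was not called in either tissue (adjusted p = 0.0642 and 0.366 by edgeR).

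The summed levels of the pan-leukocyte and myeloid markers were higher with IMQ in both tissues. Of 7 pan-leukocyte markers, 6 were called higher in skin, where their summed FPKM was 193 to 232 in control and 391 to 629 in IMQ-treated libraries, and 6 in SI, where it was 107 to 138 and 346 to 398. Of the myeloid markers, 10 of 13 tested were called higher in skin (summed FPKM 474.5 to 652 and 8470 to 9649) and 8 of 12 in SI (245 to 334 and 736 to 809). Of all genes, 4.05% were called higher in skin and 2.95% in either direction in SI. Most of the myeloid sum in IMQ-treated skin came from *S100a8* and *S100a9*, neutrophil genes, and without them it was 463 to 644 in control and 1101 to 1465 in IMQ-treated skin; the median log2 fold change of the list was 1.53. The NK cell and innate lymphoid markers overlapped between the groups in skin (40.6 to 49.1 and 32.5 to 53.5). They also overlapped in SI (24.038 to 32.526 and 30.54 to 45.246). The B cell markers overlapped in SI (25.2 to 37.7 and 30.6 to 33.5). In skin their summed FPKM was higher without overlap, at 11.911 to 18.518 in control and 20.007 to 24.131 in IMQ-treated libraries. The 9 members summed to 17.2 to 34.1 FPKM in control and 37.6 to 116 in IMQ-treated skin, and to 29.9 to 43.0 and 28.2 to 28.8 in SI. The part of the number of leukocytes in the values of the members was not tested.

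**Figure D5:**
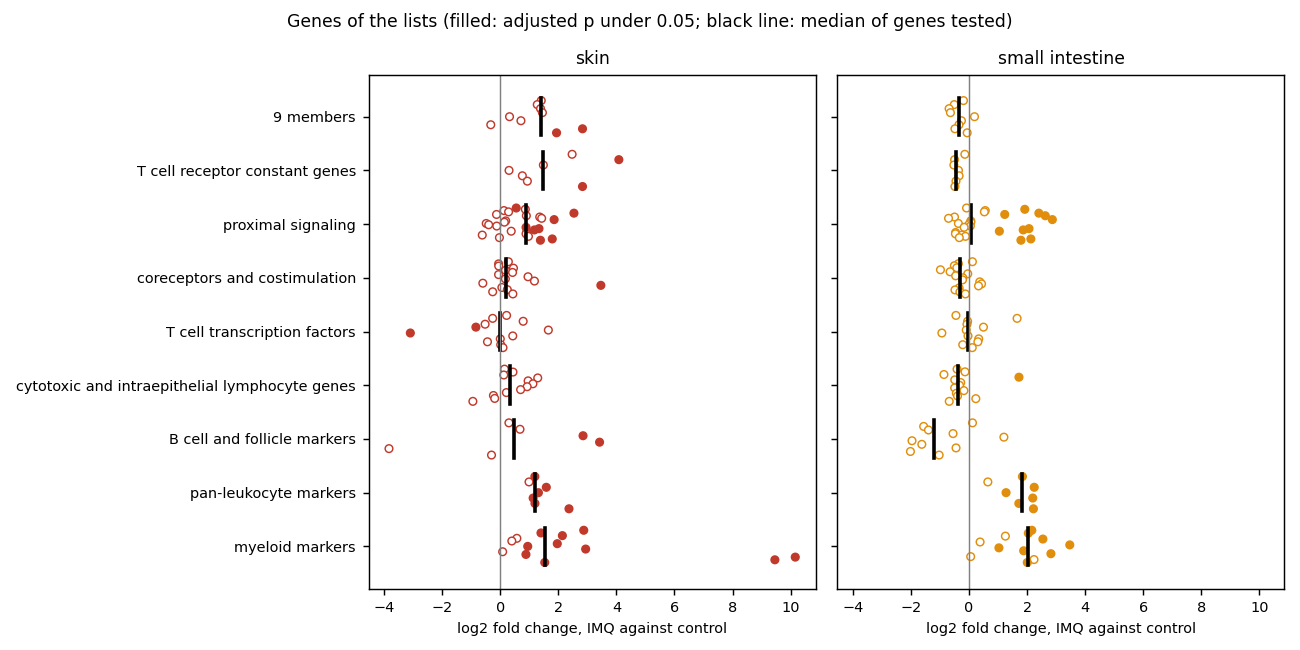
Log2 fold change of IMQ against control (horizontal axis) of the tested genes of 9 lists in skin and SI; each point is a gene, filled where its adjusted p is under 0.05, and black lines are medians. The members have a median of 1.39 in skin and −0.35 in SI, whereas the pan-leukocyte markers have positive medians in both tissues (1.19 and 1.84).

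Among the coreceptor and costimulation genes, 1 of 16 tested was called in skin, *Pdcd1*, the gene of the inhibitory receptor PD-1 (log2 fold change 3.46, edgeR adjusted p = 0.0158, or 0.0689 without IMQ replicate 5, the 1 of 6 such fits that lost the call), and 0 of 17 in SI, with medians of 0.21 and −0.32. The share of all genes was 4.05% called higher in skin and 2.95% called in either direction in SI. *Cd8b1*, the partner chain of *Cd8a*, was higher in control SI than in control skin by 3.80 on the log2 scale (edgeR adjusted p = 1.67e-05). Between the control tissues, 9 of 12 cytotoxic and intraepithelial lymphocyte genes were called higher in SI and 0 lower, against 28.2% of all genes called higher. The largest difference was that of *Gzma*, which encodes granzyme A (log2 difference 6.89). With IMQ 0 of these 12 genes were called in skin and 1 of 13 in SI, *Cd244a* (log2 fold change 1.72).

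The genes most like the members were found from a score, the mean of the 9 log2 values after removing the mean of each tissue, over 13607 genes with at least 0.5 FPKM in each tissue. This is a description over libraries that share treatment groups. Over the 11 libraries the genes with the highest Pearson's r included *Tcrg-C4* (0.979), *Acap1* (0.969), *Ikzf3* (0.963), *Trgj1* (0.962) and *Tcrg-C1* (0.956). Of the members, *Cd3d* had 0.990, *Cd3g* 0.988, *Cd247* 0.982 and *Cd3e* 0.980, whereas *Cd8a* had 0.837, *Cd4* 0.609 and *Lck* 0.115. Each member is itself a part of the score, which raises its r, so these values cannot be set against those of the other genes. The limit of 0.5 FPKM was not applied to the members. Over the 6 skin libraries alone the genes were *Eif3j2* (0.997), *Acap1* (0.997), *Gm5507* (0.994), *Tmsb4x* (0.994), *Ifngr2* (0.993) and *AI504432* (0.992). The score was −0.02 in both control replicate 2 and IMQ replicate 4 of the skin.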

How the data were processed

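RNA of skin and SI was sequenced as 100-bp paired-end reads from a stranded mRNA kit. Per the submitters' processing notes, the authors used bcl2fastq 2.20.0, Trimmomatic, HISAT2 2.1.0, StringTie 2.1.3b and mm10, and deposited whole-number read counts without normalization. The authors' FPKM in the same table is scaled by transcript length and library size. The deposited TPM was not used. The counting tool and the treatment of multiply mapped reads are not given in the sources used here. Libraries were grouped by their labels.

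Counts were analyzed in R 4.3.3 with edgeR 4.0.16 (quasi-likelihood test, relative log expression, no gene with a zero count in any library compared, called at a Benjamini-Hochberg adjusted p under 0.05). Alternatives were TMM, DESeq2 1.42.0, the filterByExpr filter, no filter, limma 3.58.1 on log2(FPKM + 0.01) and log2(FPKM + 1), one fit of all 11 libraries, and each library left out. The steps were tested on simulated data. Ratios of FPKM were compared by exact permutation in Python 3.11.15. Nothing states that the libraries came from separate mice, so p-values measure the spread between these samples. The members and lists were chosen with earlier results of these data known. Named genes are the members, up to 4 called genes of a list by adjusted p with its largest change, and the 6 genes most like the members; some genes that this rule names are not reported here. Positions and promoters are those of RefSeq (GRCm38.p6).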

Additional observations from a re-analysis of the deposited data

Results flagged for a closer look

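For 14 genes of the lists the response to IMQ differed between the tissues in the interaction test of edgeR with Benjamini-Hochberg adjustment. Of all 18108 genes tested, 462 were called in this test. Called genes were 2 of 7 receptor constant genes, with *Trdc*, 2 of 3 variable genes and 2 of 8 gamma delta T cell genes tested. They were 1 of 26 proximal signaling, 1 of 12 transcription factor, 1 of 5 NK cell and 1 of 6 B cell genes. Of 12 myeloid genes, 3 were more positive in SI and 1 in skin. No other gene of the lists was called. The lists were chosen with earlier results of these data known, so these counts are a description. Values are the log2 response in SI minus that in skin. Among the receptor genes it was −3.31 for *Trdc*, −4.58 for *Tcrg-C2*, −5.93 for *Tcrg-V4* and −4.92 for *Trgv2*, each lower in SI. Among genes of gamma delta T cells it was −4.88 for *Blk*, a kinase gene that B cells also use, and −3.19 for *Il23r*. The kinase *Fyn* (1.36) and the transcription factor *Gata3* (1.34), which the epidermis also expresses, were more positive in SI, as was *Klrb1c* (2.92), an NK cell receptor. The B cell gene *Cd22* had −4.25. Of the myeloid genes, *Itgax* (2.75), *Cd68* (1.97) and *Fcer1g* (1.51) were more positive in SI and *S100a9* (−7.22) in skin.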

How the results depend on the processing

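No member gained or lost a call in SI under any alternative. In skin, 2 members were called by edgeR, 6 with DESeq2, 1 without a filter, 1 with limma on log2(FPKM + 0.01), 0 with limma on log2(FPKM + 1), 4 without control replicate 2 and IMQ replicate 6 together (the highest control and IMQ libraries for the CD3 genes, left out after their values were seen, so that these calls support nothing), and 0 to 2 when a library was left out. The calls of all genes in skin were 1382, and 3030 with DESeq2, 894 with limma on log2(FPKM + 1), 2420 without those 2 libraries and 258 to 2521 when a library was left out. In SI they were 588, and 1206 with DESeq2 and 294 to 801. For the difference between the tissues they were 462, and 1281 with DESeq2, 301 without a filter and 144 to 1072, with 1 member by edgeR, 5 with DESeq2, 0 with filterByExpr, 0 without a filter and 0 to 4 when a library was left out. Between the control tissues 5 members were called, 3 and 2 with limma on log2(FPKM + 0.01) and log2(FPKM + 1), and 4 to 7 when a library was left out.

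Among the members and their ratios, the sign changed for the following values. When a library was left out, the log2 difference of *Trdc* to the CD3 sum in SI was −0.092 to 0.37 and that of *Cd247* to the CD3 sum in skin −0.15 to 0.024. The log2 fold change in SI was −0.40 to 0.034 for *Cd247*, −0.18 to 0.0067 for *Zap70* and −0.0069 to 0.42 for *Cd4*. The difference between the tissues was −0.32 to 0.11 for *Cd4* and −0.18 to 0.16 for *Lck*, and 0.0017 for *Lck* with limma on log2(FPKM + 0.01). The causes were not tested. No paired analysis was possible because the replicate numbers 1 to 11 are each used once. With 2 or 3 libraries per group, differences below the spread between libraries cannot be seen, and for *Cd8a* in skin and the variable genes the low counts limit precision as well.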

Other observations

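Among 11 genes of gamma delta T cells and IL-17, 8 were tested in skin and 3 were called, all higher, against 4.05% of all genes called higher. *Blk* rose by 5.10 on the log2 scale (34, 31 and 46 reads in control and 624, 857 and 1930 in IMQ-treated skin), *Il23r* by 3.89 and *Cd163l1*, a scavenger receptor gene of gamma delta T cells, by 2.23. The cytokine genes *Il17a* and *Il17f* had 0 reads in all control skins, and 80, 71 and 243 and 118, 111 and 554 reads after IMQ. In SI 0 of the 8 tested were called, and *Il17a* had 4, 11 and 9 reads in control and 5 and 0 after IMQ.

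Of 12 T cell transcription factor genes, 0 were called higher and 2 lower in skin, *Gata3* (log2 fold change −0.84) and *Lef1* (−3.10), which skin epithelium and hair follicles also express, and 0 were called in SI. Of all 20512 genes tested in skin, 552 were called lower. *Foxp3*, of regulatory T cells, was lower in control SI than in control skin (log2 difference −3.27, edgeR adjusted p = 7.30e-06). Of the B cell genes, 2 of 6 tested were called higher in skin, *Cd79b* (3.42) and *Cd22* (2.85), against 4.05% of all genes. In SI 0 of 10 were called, with a median of −1.22. The list was mixed in skin, with 4 positive and 2 negative log2 fold changes. *Fcer2a* was lower without overlap there, by −3.83, and was not called (edgeR adjusted p = 0.0812). Of the NK cell genes, 0 of 5 were called in skin and 1 of 5 in SI, *Klrb1c* (2.69), against 2.95% of all genes in SI.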
